A study of Mus musculus with 2 samples.

Results

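Within tumour endothelial cells labelled as control, 351 cells scored highest on 5 genes, Kcnj8, Piezo2, Celf4, Ildr2 and Kcne3, and are called the high-score group. The score was the mean of the deposited natural-log values of the 5 genes in a cell. It was taken over the 1404 control cells, of 2826, that held at least 2000 detected genes, and the series held 6194 cells in all. The high-score group was the 25% of these cells with the highest score. It was compared with the low-score group, the 351 cells (25%) with the lowest, and the cells between were split at the median into 2 middle score groups. The values of the 5 genes therefore chose both groups, and differences in those genes between them are a description and no finding. The cut lay at a score of 0.727, and the scores ran on without a gap across it: the lowest high-score cell scored 0.726889 and the highest cell outside scored 0.726808. Within 0.05 of the cut lay 68 cells inside it and 62 cells outside it. The low-score group ended at a score of 0.181, and 180 of the 1404 cells (12.8%) had none of the 5 transcripts. The high-score group is a range of a continuous score, and whether it holds a separate cell type was not tested.

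The series measured, by droplet single-cell RNA sequencing, endothelial cells sorted from mouse tumours on CD31, a surface protein of endothelium. Both libraries, control and NF2 KO by their titles, came from adult c57bl/6 mice, 1 library for each. NF2 KO names a knockout of Nf2, the gene of merlin, a membrane-linked protein that acts upstream of the Hippo kinases. The tumour type, the number of mice, the driver of the knockout and the deleted exons are not given in the sources used here. Barcodes in each library carried 1 of 2 run prefixes, whose meaning is not stated, and the runs were treated as parts of a library and never as replicates. With 1 library per group and groups of cells chosen by their own expression, no test was made and no p-value computed. Nf2 itself stood at 21.5 CPM (UMIs, that is counted molecules, per 1000000 UMIs of a group) in the control cells with enough genes and at 20.4 CPM in the library labelled NF2 KO. Their 95% Poisson intervals, 19.95 to 23.2 and 19.2 to 21.6, overlapped. Reads from the 3′ end of a transcript check a deletion only where they cover it, and with the deleted exons unknown here this level checks nothing about the label.

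Kcnj8 encodes the pore-forming subunit of the vascular ATP-sensitive potassium channel, which opens when cellular ATP is low and is best known in smooth muscle and pericytes. Kcne3 encodes a small membrane protein that modulates voltage-gated potassium channels. Piezo2 is a mechanically gated cation channel known for touch sensation in sensory neurons, and Celf4 is an RNA-binding protein known mainly from neurons. Ildr2 is a membrane protein found at tricellular junctions. Endothelium in growing tumours contains tip cells, which lead new sprouts, as well as capillary, arterial and venular cells, of which the venular cells are the main site of leukocyte entry.

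**Figure D1:**
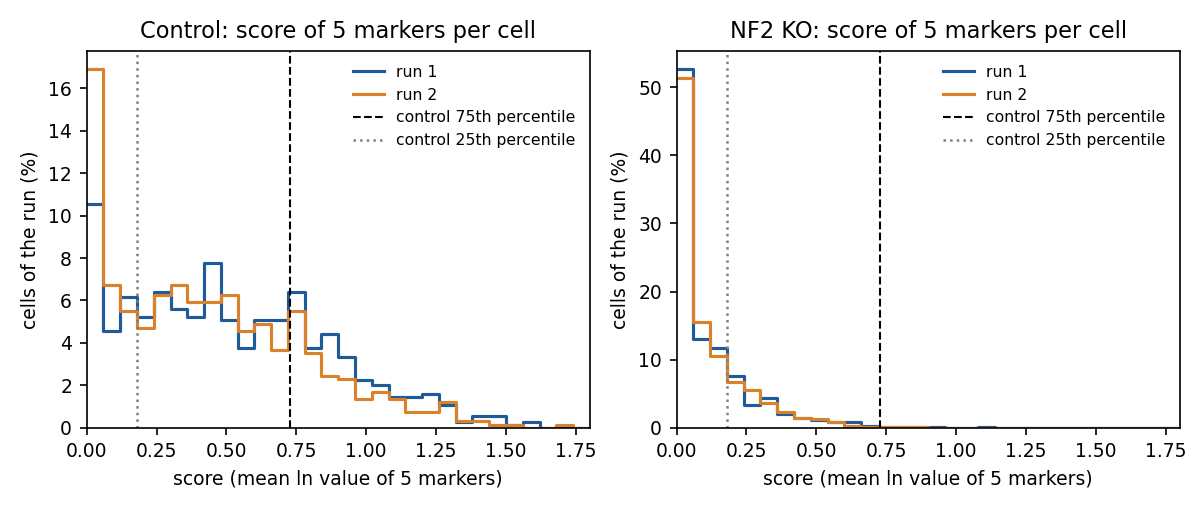
Share of cells of each run (%) by score, the mean natural-log value of the 5 genes, for cells with at least 2000 detected genes in each library, with lines at the control 25th and 75th percentiles. Of the control cells 12.8% scored 0, against 49.2% of cells labelled NF2 KO, and 0.426% of the latter lay past the control 75th percentile.

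The cells of the high-score group came from both runs: 214 of the 748 run 1 cells (28.6%) and 137 of the 656 run 2 cells (20.9%). They were deeper than the low-score group, with a median of 22114 UMIs and 4660 genes per cell against 15330 UMIs and 3921 genes. Median mitochondrial shares were 3.35% and 3.27%, and median ribosomal-protein shares 15.5% and 16.4%. The share of cells in the high-score group was mostly larger in the deeper cells of each run and ranged from 13.0% to 40.7% over 10 groups of cells formed by run and depth. Every ratio below was adjusted for this: the low-score CPM was reweighted over these 10 groups to the depth of the high-score group. Each gene's ratio is high-score CPM over this adjusted CPM, with the values of run 1 and run 2 after it. A gene was called higher or lower where the adjusted ratio was at least 1.5 in either direction, the 95% interval of the unadjusted ratio excluded 1, the mean CPM was at least 20 and both runs pointed the same way. These intervals cover counting error only. The mean was that of both groups, so a gene could reach 20 CPM through 1 group alone, as several of the highest and lowest ratios below did.

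Kcnj8 ran over the score from 5.49 CPM in the low-score group through 30.2 and 96.1 CPM in the middle score groups to 259 CPM in the high-score group. Kcne3 ran from 8.31 through 74.3 and 191 to 364 CPM, and Piezo2 from 14.3 through 73.7 and 112 to 197 CPM. Ildr2 ran from 10.8 to 159 CPM and Celf4 from 3.29 to 82.2 CPM. These 5 genes set the groups, so the steps show only how steep each was. In the high-score group, 166 cells (47.3%) held all 5 transcripts and 124 (35.3%) held 4. After each cell was thinned to 4000 UMIs, 55.6% of high-score cells and 3.13% of low-score cells held Kcnj8, against 88.6% and 9.12% before thinning.

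Whether each gene went with the other 4 was described by leaving it out of the score and forming new score groups from the remaining 4. The Kcnj8 level was then 187 CPM in the high-score group and 21.0 CPM in the low-score group, with an adjusted ratio of 10.0 (11.1 and 8.92). Celf4 had a ratio of 6.38 (5.75 and 7.46). Piezo2 had 3.38 (2.50 and 6.74), Ildr2 3.37 (3.09 and 3.92) and Kcne3 3.21 (2.71 and 4.18). For all 5 genes the high-score group was above the low-score group in each of the 10 groups of run and depth. Cell by cell the relations were weak to moderate: Spearman's rho of the deposited values over the 1404 cells ran from 0.165 for Ildr2 with Kcne3 to 0.387 for Kcnj8 with Kcne3. The cells share 1 library and deep cells detect all genes more readily, so these correlations are given without a test.

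Free RNA was looked for in control cells that held more leukocyte than endothelial marker UMIs, a set of 42 cells with 79293 UMIs in all and a median of 1244 UMIs. Their Kcnj8 level was 25.2 CPM (95% Poisson interval 3.06 to 91.1) their Kcne3 level 101 CPM (43.6 to 199) and their Piezo2 level 63.1 CPM (20.5 to 147). Ildr2 was not found in them, with an upper bound of 46.5 CPM. The high-score group lay above these intervals for all 4 genes. Its cells were chosen on these same genes, so that comparison cannot show expression above free RNA. With each gene left out of the score, the high-score level was 187 CPM for Kcnj8 and 270 CPM for Kcne3. It was 168 CPM for Piezo2 and 118 CPM for Ildr2. These levels too lay above the intervals. For Celf4 the leukocyte-marked cells had 50.45 CPM (13.7 to 129). This interval holds the 82.2 CPM of the high-score group and the 67.7 CPM with Celf4 left out of the score. Celf4 is therefore not shown to exceed this background. Thinned to 1000 UMIs, Kcnj8 was found in 3.45% of the 29 such cells deep enough and in 16.8% of high-score cells, with exact binomial intervals of 0.0873 to 17.8% and 13.0 to 21.1%. The intervals overlap at this depth. The low-score group lay within the Poisson interval of the leukocyte-marked cells for Kcnj8 and Ildr2 and below it for Kcne3, Piezo2 and Celf4, so these few shallow cells give no background level that holds for all control cells.

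**Figure D2:**
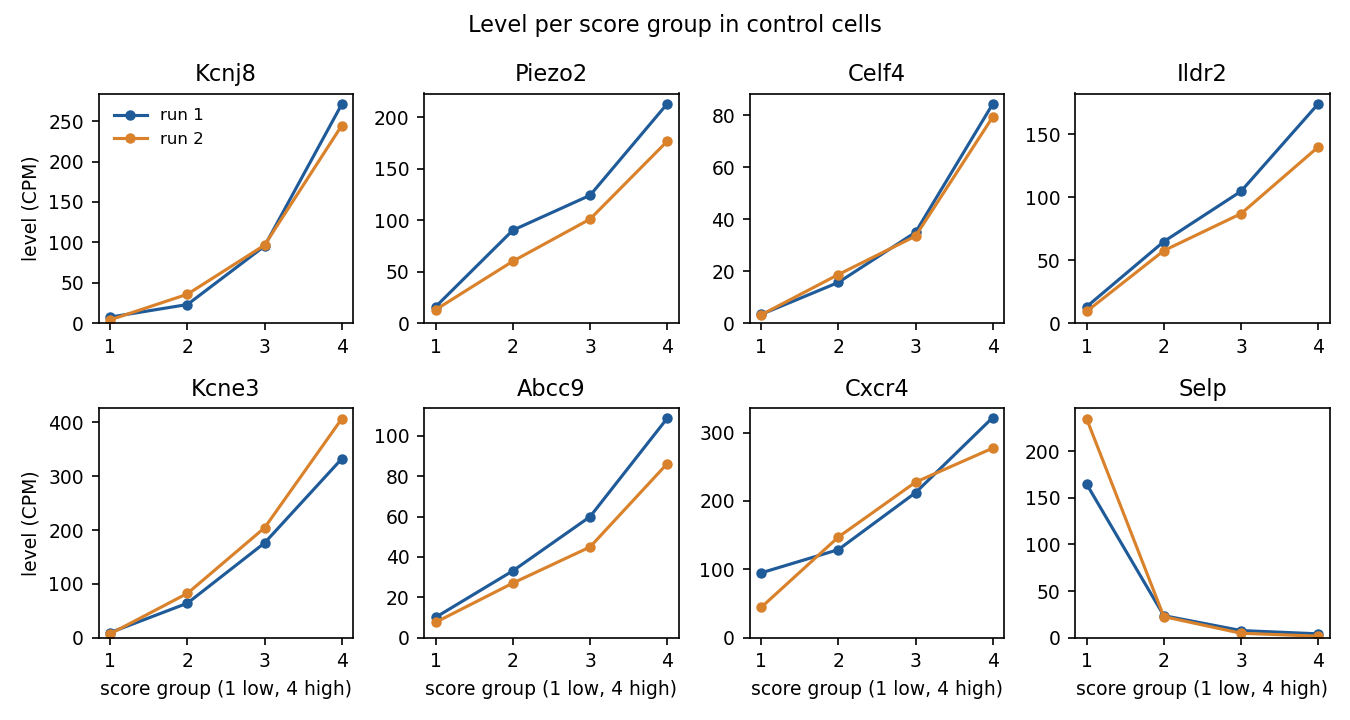
Level (CPM) of the 5 score genes and of Abcc9, Cxcr4 and Selp in the 4 score groups in control cells, from low (1) to high (4), for run 1 and run 2 separately, each point the summed UMIs of that group and run. Abcc9 reaches 109 and 86.2 CPM in the high-score group, and Selp falls below 5 CPM there in both runs.

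Across all genes, 430 of the 5909 with enough counts (7.28%), the 5 score genes included, were called higher in the high-score group and 473 (8%) lower. The rule that chose the cells used the same UMIs, so these counts describe the contrast and nothing is read from them. Each list count below is to be read beside these shares of all genes. With a score from cells thinned to 4000 UMIs, 237 were called higher and 280 lower, of which 227 and 266 were among the same genes. Against all other cells in place of the low-score group, 152 of 5825 genes with enough counts were called higher and 216 lower. The runs pointed alike: of genes called higher in run 1 alone, 95.1% lay on the same side in run 2, against 47.0% of all genes. Genes called lower in run 1 alone lay on the same side in run 2 in 95.2% of cases, against 53.0% of all genes.

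Of 27 listed potassium channel genes beyond the score, 23 were in the data and 5 had enough counts. Of these 5, 4 were called higher in the high-score group and 1 lower. Their median log2 ratio was 2.25 (2.01 and 2.51 by run), against -0.05 over all genes. Abcc9 and Kcna5, with 8.62 and 9.25 CPM in the low-score group, reached the mean of 20 CPM through the high-score group alone. Abcc9 encodes the sulfonylurea receptor subunit that joins the Kcnj8 pore to form the ATP-sensitive channel. It stood at 98.9 CPM in the high-score group (109 in run 1, 86.2 in run 2) and at 8.62 CPM in the low-score group (10.2 and 7.71). The adjusted ratio was 12.7 (13.6 and 11.4), and the unadjusted ratio 11.5 (95% interval 8.73 to 15.3). Its level went up at every step, through 29.8 and 52.0 CPM, in either run. Kcnj2, an inward rectifier that sets the resting potential of endothelial cells, stood at 114 CPM against 21.3 CPM, a ratio of 4.76 (4.03 and 6.59). Kcna5, a voltage-gated channel, had 38.4 against 9.25 CPM and a ratio of 5.28 (4.97 and 5.69). Kcnq1, whose channel Kcne3 is known to modulate, had 56.8 against 30.3 CPM and a ratio of 2.11 (2.53 and 1.71). Kcnj15, another inward rectifier, was lower, with 18.6 against 32.5 CPM. Against all other cells 3 of the list were called higher, with a median log2 ratio of 1.13.

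Kcnj8 and Abcc9 are neighbours. In the GENCODE annotation of the mm10 build, Kcnj8 lies at chr6:142564837-142571614 and Abcc9 at chr6:142587862-142702315, both on the minus strand, with 16247 bases between them. Their promoter windows, 250 bases before to 50 bases after the start in RefSeq (GRCm38.p6), are shown because the levels of both genes went up over the score. The Kcnj8 window is chr6:142571565-142571864 and the Abcc9 window chr6:142702225-142702524, both read on the minus strand. Neither held any of the 3 motifs searched on both strands (2 copies of GAAA spaced by 2 bases, CGGAAGT of the ETS factors, and ACGTG), which says only that these letters are not in these windows.
Kcnj8: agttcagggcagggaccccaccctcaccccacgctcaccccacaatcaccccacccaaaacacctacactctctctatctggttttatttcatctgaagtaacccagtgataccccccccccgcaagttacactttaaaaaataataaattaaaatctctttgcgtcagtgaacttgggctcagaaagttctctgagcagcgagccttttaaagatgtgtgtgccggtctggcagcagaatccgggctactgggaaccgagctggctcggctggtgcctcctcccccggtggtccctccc
Abcc9: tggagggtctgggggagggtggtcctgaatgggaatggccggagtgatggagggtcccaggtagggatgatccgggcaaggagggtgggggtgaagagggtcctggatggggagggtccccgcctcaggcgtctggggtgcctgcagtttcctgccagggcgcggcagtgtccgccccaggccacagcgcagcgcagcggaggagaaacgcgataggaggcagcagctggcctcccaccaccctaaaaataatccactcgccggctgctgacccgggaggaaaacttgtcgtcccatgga

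Other channel and junction families were described in the same way. Among mechanosensitive and transient receptor potential channels 0 of the 6 genes with enough counts were called in either direction. Piezo1, the mechanosensitive channel known from endothelium, stood at 82.9 CPM in the high-score and 97.4 CPM in the low-score group, a ratio of 0.814. Splicing regulators of the CELF and muscleblind families had 0 of 6 called, with Mbnl1 at a ratio of 0.870. Tight junction genes had 4 of 8 called higher and 1 lower. Cldn5, the main claudin of endothelium, had 1375 against 723 CPM, a ratio of 1.98 (1.83 and 2.18). Cgnl1, a junction scaffold, had a ratio of 1.87, whereas the junctional adhesion molecule Jam2 had 106 against 296 CPM and Jam3 had a ratio of 1.70. The Jam3 call held in 11 of 25 alternatives and in neither run alone, and against all other cells 1 tight junction gene was called higher. Of 9 adherens junction genes only Ptprb, a phosphatase that acts on the junction and on the angiopoietin receptor, was called, with 184 against 590 CPM. This single call among 9 is near the 8% called lower over all genes.

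Genes of tip cells were higher in the high-score group. Of 24 listed genes with enough counts, 16 were called higher and 2 lower, with a median log2 ratio of 0.92 (0.78 and 1.03). Against all other cells in place of the low-score group, 5 were called higher and 1 lower, with a median of 0.39. Cxcr4, the receptor of the chemokine Cxcl12, stood at 302 CPM (322 in run 1, 277 in run 2) against 63.2 CPM (94.97 and 44.5), a ratio of 4.73 (4.22 and 5.77). Both runs of the high-score group were above both runs of the low-score group. Chst1, a sulfotransferase, had a ratio of 4.61 (4.82 and 4.35). Nid2, a basement membrane linker, had 376 against 101 CPM and a ratio of 3.42 (3.16 and 3.83). Unc5b, a netrin receptor of sprouting vessels, had 152 against 48.8 CPM and a ratio of 3.001 (3.55 and 2.45). The ligand Pgf had a ratio of 2.96 (2.40 and 4.18), and Angpt2, which destabilises vessels, 1.98 (1.72 and 2.53). Pgf stood at 742 CPM in the high-score group and at 774 CPM in the group next below. Igfbp3, which binds insulin-like growth factors outside cells, reached 8394 CPM against 3576 CPM, a ratio of 2.23 (2.29 and 2.15). The apelin receptor Aplnr and the growth factor Vegfc, both on the list, were lower, at 46.3 against 137 CPM for Aplnr and 24.4 against 44.2 CPM for Vegfc.

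Matrix, guidance and growth factor lists overlap with that of tip cells, and the same genes appear in several of them. Of 15 basement membrane genes, 6 were called higher and 1 lower, with a median log2 ratio of 0.41. Fn1, fibronectin, had 1062 against 369 CPM and a ratio of 2.82 (3.21 and 2.46), and the laminin chain Lama4 had 482 against 178 CPM and a ratio of 2.63 (2.64 and 2.61). Guidance genes had 6 of 14 higher and 2 lower. Of these, 3 basement membrane and 2 guidance genes were called higher against all other cells. Among growth factor genes of the VEGF and angiopoietin families, 4 of 10 were higher and 2 lower. Nrp1, a co-receptor of VEGF and semaphorins, had a ratio of 1.96, and the receptor Flt4 1.84. Tek, the receptor that Angpt2 binds, was lower at 44.4 against 75.3 CPM. Feedback inhibitors of the MAPK pathway, which growth factors induce, had 4 of 7 higher and 0 lower, with Spry1 at 3.30 (3.26 and 3.35) and Spry4 at 2.77 (2.47 and 3.32). Of 9 integrins, Itga9 alone was called, at a ratio of 2.51 (2.89 and 2.15). Over all genes with enough counts 7.28% were called higher, so this single call is no result about integrins. The Notch pathway had 2 of 10 higher, Notch4 at 1.63 and Jag1 at 1.63, and a median log2 ratio of 0.00.

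**Figure D3:**
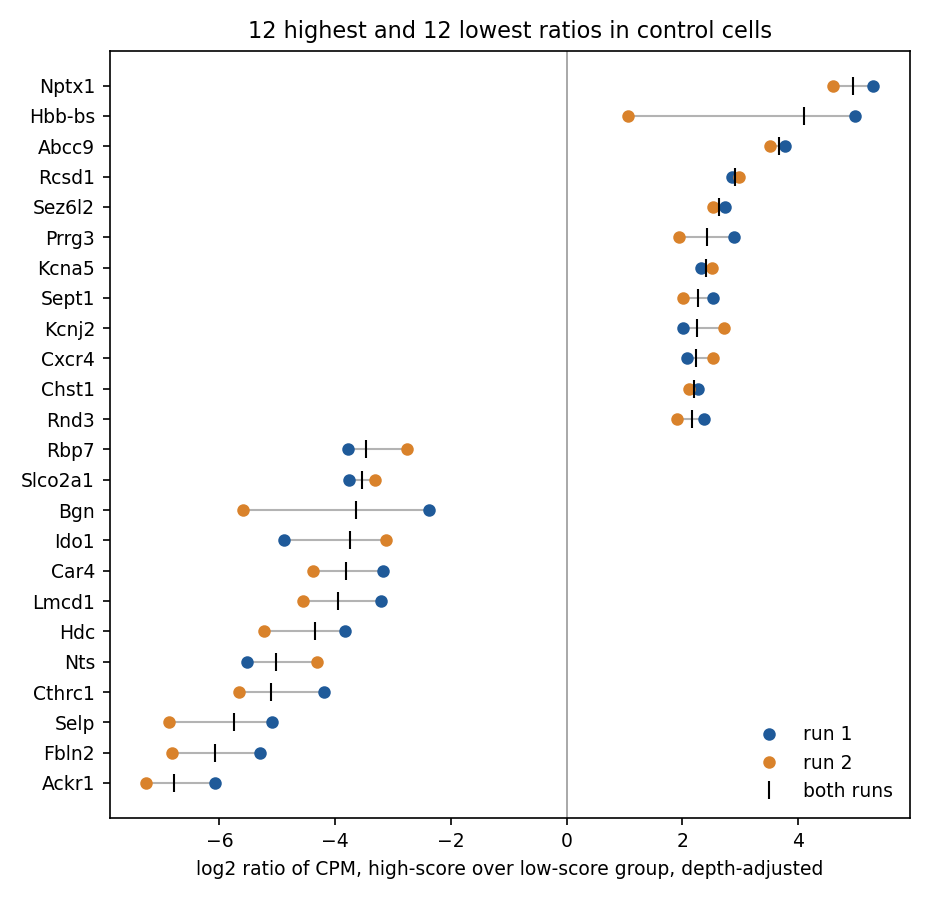
Depth-adjusted log2 ratio of CPM, high-score over low-score group, for the 12 genes with the highest and the 12 with the lowest ratio among those called, with points for run 1 and run 2 and a tick for both runs together. Nptx1 is at 39.4-fold in run 1 and 24.4-fold in run 2, and Hbb-bs has the widest gap, from 31.6-fold in run 1 to 2.09-fold in run 2.

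Nptx1 and Sez6l2, both known mainly from neurons, were among the 12 highest ratios. Both reached the mean of 20 CPM through the high-score group alone. In the list of neuropeptides and granins, 2 of the 3 genes with enough counts were called higher, Chga and Gal, and 1 lower, Nts; against all other cells 0 were called higher and 1 lower. Nptx1, a secreted pentraxin of synapses, stood at 47.9 CPM in run 1 and 48.0 CPM in run 2 of the high-score group, against 3.82 and 3.48 CPM in the low-score group. Its unadjusted ratio was 13.3 (95% interval 8.75 to 21.2) and its adjusted ratio 31.0 (39.4 and 24.4), since the low-score level reweighted for depth fell from 3.61 to 1.54 CPM. Sez6l2, a neuronal membrane protein, had 55.0 against 9.09 CPM and a ratio of 6.17 (6.63 and 5.75). Chga, chromogranin A of secretory granules, had 288 against 104 CPM and a ratio of 3.22, but stood higher in the middle score groups, at 342 and 340 CPM. Gal, the neuropeptide galanin, had 295 against 98.5 CPM and a ratio of 2.75 that came mostly from run 1 (16.4, against 1.504 in run 2). Its level in the group next below the high-score group was 309 CPM. Nts, neurotensin, went the other way, with 12.04 against 331 CPM and a level 32.6-fold lower (46.2 and 19.9). Of the 8 listed markers of neurons and Schwann cells, 6 were at 0 in the high-score group, Sox10 and Snap25 among them, and the list summed to 6.68 CPM there against 16.2 CPM in the low-score group.

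Other genes among the highest 12 were Rcsd1, a regulator of actin capping, at 7.48 (7.26 and 7.85), and the membrane protein Prrg3 at 5.34 (7.41 and 3.83). Sept1, a septin, had 4.85 (5.79 and 4.04) and Rnd3, which opposes actin contraction, 4.47 (5.18 and 3.75). Rcsd1 rests on few UMIs, 319 in the high-score and 33 in the low-score group. Hbb-bs, a haemoglobin chain, had a ratio of 17.2, but 85.5% of its 639 UMIs in the high-score group came from 1 cell, and its level there was 117 CPM in run 1 and 9.55 CPM in run 2.

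Hypoxia and glycolysis genes had 6 of 18 called higher and 0 lower, with a median log2 ratio of 0.39 (0.21 and 0.65). Against all other cells 0 were called higher, with a median of 0.11, and without Kcne3 in the score 3 were, with a median of 0.079. Egln3, an oxygen-sensing hydroxylase that hypoxia induces, had 124 against 39.4 CPM and a ratio of 2.90 (2.49 and 3.96). Adm, adrenomedullin, had 640 against 260 CPM and a ratio of 2.13 (1.72 and 3.25), and the glucose transporter Slc2a1 1.73 (1.47 and 2.08). Slc2a1 and Adm were not highest in the high-score group: in the group next below they stood at 226 and 775 CPM. The core ACGTG of the hypoxia response element was in the promoter windows of 4 of the 6 genes called higher and in 19.6% of all 32851 windows of the same length. The 6 genes come from a list of hypoxia and glycolysis genes, so this share describes the list and says nothing about the score groups. The Egln3 window, chr12:54203825-54204124 on the minus strand, is shown with its ACGTG match in capitals.
Egln3: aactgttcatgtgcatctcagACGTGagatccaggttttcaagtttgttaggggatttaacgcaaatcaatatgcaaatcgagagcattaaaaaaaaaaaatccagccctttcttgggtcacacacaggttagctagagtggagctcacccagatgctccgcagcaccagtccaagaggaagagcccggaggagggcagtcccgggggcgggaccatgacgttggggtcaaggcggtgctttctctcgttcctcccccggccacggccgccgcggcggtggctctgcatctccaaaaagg

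**Figure D4:**
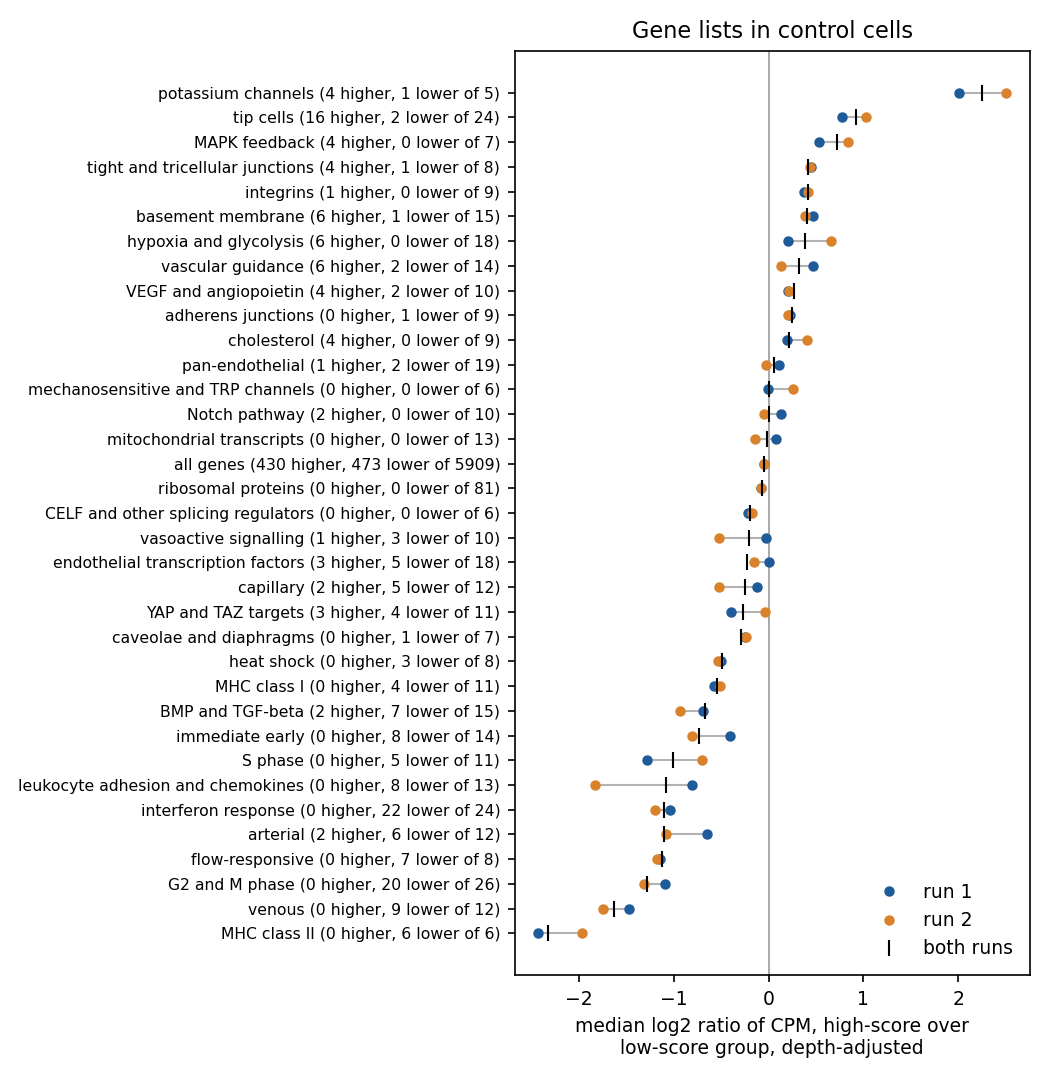
Median depth-adjusted log2 ratio of CPM, high-score over low-score group, of each gene list with at least 5 genes at a mean of 20 CPM, with the number called higher and lower in the label, points for each run and a tick for both. Potassium channels (2.25) and tip cells (0.92) lie furthest right, and MHC class II (-2.33) and venous genes (-1.63) furthest left.

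Venous genes had the lowest median among the lists with at least 10 genes at enough counts. Of 12 venous genes with enough counts 9 were called lower and 0 higher, with a median log2 ratio of -1.63 (-1.47 and -1.75). Of these genes 5 were called lower against all other cells, with a median of -0.80. Selp, P-selectin of venules, stood at 3.17 CPM (4.27 in run 1, 1.76 in run 2) against 209 CPM (164 and 234), 53.9-fold lower after adjustment. The groups were far apart in both runs. Ackr1, the chemokine-binding receptor that marks venules, had 2 UMIs in the high-score group and 284 in the low-score group, an unadjusted ratio of 0.00492 (95% interval 0.000593 to 0.0179). The matrix gene Fbln2 had 1.42 against 129 CPM. Hdc, the enzyme that makes histamine, had 2.52 against 51.3 CPM, and Bgn, a matrix proteoglycan, 3.28 against 65.2 CPM. Slco2a1, a prostaglandin transporter, had 3.39 against 48.4 CPM. Among the other genes with the lowest ratios, Cthrc1, a secreted matrix protein, had 0.657 against 43.4 CPM, and Lmcd1 2.52 against 50.8 CPM. Nr2f2, the transcription factor of venous identity, was lower by a smaller factor, with 35.1 against 84.5 CPM and a ratio of 0.410 (0.438 and 0.371).

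Part of this contrast lay in a single cluster. When the 1404 cells were clustered without the 5 score genes, 102 cells led by Selp, Fbln2, Ackr1 and Bgn held 0 high-score cells (exact upper limit 3.55%) and 89 of the 351 low-score cells. Without that cluster, 7 of 10 venous genes with enough counts were still called lower, and their median log2 ratio was -1.03. Over all genes 365 were then called higher and 384 lower, of which 335 and 359 were the same genes. Genes of leukocyte adhesion and chemokines had 8 of 13 lower and 0 higher. Icam1, a ligand of leukocyte integrins, had 27.1 against 210 CPM, a ratio of 0.148 (0.148 and 0.149), and Lrg1 had 125 against 615 CPM. Cxcl12, the ligand of the Cxcr4 that was higher, had 45.0 against 190 CPM, a ratio of 0.240 (0.281 and 0.185). Its level in the middle score groups was 139 and 144 CPM.

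Interferon response genes were lower as a group: 22 of 24 with enough counts were called lower and 0 higher, with a median log2 ratio of -1.10 (-1.04 and -1.20). Cxcl10, a chemokine that draws T cells, had 120 CPM (121 and 118) against 507 CPM (360 and 593), a ratio of 0.256 (0.370 and 0.182). Of its 1094 UMIs in the high-score group, 60.8% came from 5 cells. The guanylate-binding protein Gbp4 had a ratio of 0.283 and the antiviral gene Ifit3 0.301 (0.359 and 0.261). The MHC class II genes were lower still, with 6 of 6 called lower and a median of -2.33. Cd74, the invariant chain, had 162 against 831 CPM and a ratio of 0.184 (0.192 and 0.174), and H2-Aa had 22.9 against 119 CPM. MHC class I genes had 4 of 11 lower, by less, as for Psmb8 at a ratio of 0.634. Ido1, an interferon-induced enzyme of tryptophan breakdown, had 6.35 against 76.5 CPM.

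The interferon-stimulated response element, searched on both strands as 2 copies of GAAA spaced by 2 bases, was in 12 of the 20 RefSeq promoter windows of the 17 matched genes among the 22 called lower, and in 3.44% of all windows. The Cxcl10 window (chr5:92348840-92349139, minus strand) and the Ifit3 window (chr19:34583279-34583578, plus strand) are shown as those of the named chemokine and antiviral gene, with the matches in capitals. Those of Ifit3 read on the opposite strand. A match is a description of the letters and not a bound site. The genes come from the interferon list, so the share describes that list and says nothing about the score groups.
Cxcl10: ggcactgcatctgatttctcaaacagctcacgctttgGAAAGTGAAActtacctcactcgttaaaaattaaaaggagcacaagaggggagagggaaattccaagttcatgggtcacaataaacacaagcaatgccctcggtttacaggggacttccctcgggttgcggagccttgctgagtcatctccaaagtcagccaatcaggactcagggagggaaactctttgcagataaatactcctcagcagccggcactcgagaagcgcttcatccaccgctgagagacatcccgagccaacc
Ifit3: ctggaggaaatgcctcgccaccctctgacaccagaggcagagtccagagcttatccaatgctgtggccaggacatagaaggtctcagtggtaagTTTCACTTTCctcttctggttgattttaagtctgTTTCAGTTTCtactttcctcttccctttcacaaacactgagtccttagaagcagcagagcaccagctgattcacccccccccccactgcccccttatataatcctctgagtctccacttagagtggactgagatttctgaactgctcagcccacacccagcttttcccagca

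Genes that respond to blood flow were lower, with 7 of 8 called lower, 0 higher and a median log2 ratio of -1.13 (-1.15 and -1.18). Set against all other cells, 4 were called lower, with a median of -0.53. The list was not split by whether flow raises or lowers a gene, so its count gives no direction for the response to flow. Klf4, a flow-induced transcription factor, had 44.1 against 114 CPM and a ratio of 0.380 (0.403 and 0.340), and the related Klf2 had 170 against 372 CPM. Edn1, endothelin, had a ratio of 0.330 and Thbd, thrombomodulin, 0.343. Immediate early genes had 8 of 14 lower and 0 higher, with Egr1 at 341 against 646 CPM and Fos at 439 against 853 CPM. These genes are also known to respond to the dissociation of tissue, and the part of handling was not tested. In the BMP and TGF-beta list, 7 of 15 were lower and 2 higher. Id3, a target of BMP signalling, had 240 against 621 CPM and a ratio of 0.415 (0.455 and 0.373), and the co-receptor Eng had 336 against 678 CPM, a ratio of 0.541.

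Arterial genes had 6 of 12 lower and 2 higher, the 2 being Unc5b and Jag1. Fbln5, of elastic fibres, had a ratio of 0.303 and the semaphorin Sema3g 0.343. Capillary genes were split, with 5 of 12 lower and 2 higher. Car4, carbonic anhydrase of the capillary surface, had 8.98 against 122 CPM and Cd36, a fatty acid carrier, 98.1 against 313 CPM, a ratio of 0.295 (0.288 and 0.306). Rbp7, a retinol-binding protein, had 13.8 against 94.8 CPM. Btnl9 was higher, with 75.5 against 16.8 CPM and a ratio of 3.48 (2.85 and 5.35). The YAP and TAZ targets, the usual readout of the Hippo pathway, had 3 of 11 higher and 4 lower. Igfbp3, Gadd45a (2.01) and Nt5e (1.51) were higher, and Amotl2 (0.415) and Cyr61 (0.531) lower. The Gadd45a call held in 14 of 25 alternatives and not in run 2 alone. The Nt5e call held in 18 of 25 and not in run 1 alone. The calls of Igfbp3, Amotl2 and Cyr61 held in 25, 24 and 22 of 25. In the adenosine list Nt5e, which makes adenosine, was higher while Entpd1, which acts before it, was lower at 0.469.

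Cell-cycle genes were lower in the high-score group, with 20 of 26 genes of G2 and M phase and 5 of 11 of S phase called lower and 0 higher. Birc5, survivin, had 36.1 against 95.5 CPM, with 117 and 82.7 CPM in the middle score groups. The clusters of cycling cells held few of the high-score group: in the 2 clusters led by mitotic and histone genes, 11.5% and 15.3% of cells were in the high-score group. Without these clusters 0 of the S-phase genes and 0 of the G2 and M genes were called lower, and the list medians were -0.03 and -0.26.

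Endothelial markers were at a like level in both groups, at 11820 CPM summed over 19 genes in the high-score and 11520 CPM in the low-score group, and 16 of the 19 were not called. Since Kcnj8 and Abcc9 are known markers of pericytes, the other mural markers were read beside them. Without Abcc9, the 12 remaining mural markers summed to 19.8 CPM in the high-score group (24.8 and 13.3 by run) and 23.4 CPM in the low-score group (21.6 and 24.4), and Cspg4 was at 0 in both. With the 10% of cells highest in the full mural list, Abcc9 included, left out, 455 genes were called higher and 476 lower. Abcc9 gave 98.9 of that list's 119 CPM in the high-score group, so this step checks little about mural cells. Fibroblast markers summed to 16.0 and 16.8 CPM and macrophage markers to 64.5 and 65.7 CPM. Neutrophil markers came to 55.6 and 74.2 CPM, lymphocyte markers to 2.19 and 3.45 CPM, and epithelial markers to 4.93 and 6.90 CPM with Epcam at 0 in both. Erythroid and platelet markers were the exception, at 129 CPM (201 in run 1, 34.9 in run 2) against 25.4 CPM (27.6 and 24.1). Most Hbb-bs UMIs of the high-score group came from 1 cell. Without Hbb-bs the other 8 markers summed to 58.8 CPM (84.6 and 25.4) against 19.9 CPM (22.05 and 18.7). The part of these markers in the other differences was not tested. The lymphatic list had Flt4 and Lyve1 called higher, while its defining gene Prox1 was at 0 in the high-score group. Of the high-score cells 3.99% were among the 5% of control cells with the highest doublet score, as were 5.13% of the low-score group.

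The high-score group was spread over 9 of the 10 clusters of cells formed without the score genes. A single cluster held 136 of the 351 cells (38.7%), and 65.4% of its 208 cells were in the high-score group (exact interval 58.5 to 71.8%). Nptx1, Sept1 and Btnl9 were among its leading genes, behind the haemoglobin genes Hbb-bs and Hba-a1. A cluster led by Ankrd1, which is on the list of YAP and TAZ targets, and then by Vegfa and other hypoxia genes was also seen. It had 32.7% of its 165 cells in the high-score group. A cluster led by interferon genes had 25.3%, which is near the 25% of all cells, although interferon genes were lower in the high-score group as a whole. A cluster led by Nts, Cd300lg and class II genes had 11.1% in the high-score and 42.2% in the low-score group. The clusters were formed from other genes of the same cells, so the shares are a description.

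The library labelled NF2 KO, whose cells did not set the cut, held few cells this high on the score. Past the control cut lay 12 of its 2820 cells with enough genes (0.426%, exact interval 0.220 to 0.742%), 7 in run 1 and 5 in run 2, against 25% of control cells by construction. With cells thinned to 4000 UMIs, 2819 of the 2820 being deep enough, and a cut set anew on control cells, 1.77% of cells labelled NF2 KO and 26.4% of control cells lay past it. Before thinning, 49.2% of the cells labelled NF2 KO had none of the 5 transcripts. Library and genotype cannot be told apart here. The 5 genes and the cut were chosen with earlier results of these data known, so these shares are a description and no independent finding.

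Score groups formed within the library labelled NF2 KO were compared in the same way, 705 cells in the high-score group against the 1387 cells with a score of 0. There 113 of 5784 genes (1.95%) were called higher and 88 (1.52%) lower. Of the 425 genes called higher in the control beyond the 5 score genes, 348 had enough counts, and 318 of these (91.4%) lay on the same side, whereas 41.0% of all genes had a ratio above 1. The call itself was shared by 81, and the median log2 ratio was 0.34 against 0.85 in the control. Of the 473 genes called lower, 441 had enough counts, 412 (93.4%) lay on the same side and 61 shared the call, with medians of -0.28 and -0.92. The high-score group there stood at a much lower score than in the control, since its cut was 0.165. These medians therefore do not compare the sizes between the libraries.

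Some lists had the same direction in the library labelled NF2 KO and others did not. Of 23 tip cell genes with enough counts 13 were called higher and 1 lower there, with Unc5b at 4.30, Igfbp3 at 3.12 and Nid2 at 2.11. Kcnj2 was higher at 2.26 and Abcc9 had a ratio of 8.02 at a level too low for a call (29.4 against 3.39 CPM). Leaving each score gene out of the score gave ratios from 1.79 for Ildr2 to 3.76 for Celf4. Venous genes had 4 of 12 lower, with Selp 4.16-fold and Ackr1 14.8-fold lower. Of 24 interferon genes 4 were called lower, Cxcl10 and Ifit3 among them, and 0 of 2 class II genes, with Cd74 at a ratio of 0.973. Fn1 (0.967), Nptx1 (1.16, at 5.55 against 5.52 CPM) and Kcna5 (0.860) were not called there, and Chga had a ratio of 0.732. None of these differences between the libraries was tested.

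**Figure D5:**
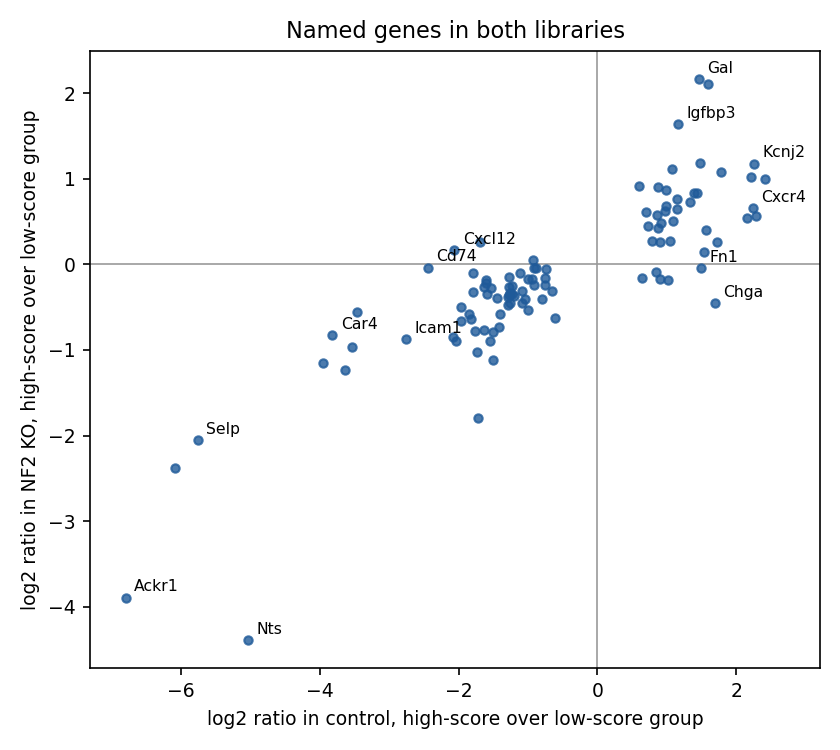
Depth-adjusted log2 ratio of CPM, high-score over low-score group, in the library labelled NF2 KO against that in the control, for the 103 named genes called in the control and at a mean of at least 20 CPM in the other library, the 5 score genes left out. For 94 of the 103 genes both ratios have the same sign. The score cuts differ between the libraries, so the sizes of the ratios are not compared.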

How the data were processed

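For each library the deposited file is a table of 19831 genes by cells in natural log values. When the log was undone, every cell summed to 10000, and scaling by the cell's smallest step turned 100% of the values into whole UMIs within 0.01. These recovered counts were used. Counts had been assumed in the planned design. Per the submitters' processing notes, Cell Ranger 3.0.0 and Seurat 3.1.1 were used with mm10; settings are not given, and the droplet chemistry was v3.1 per the labels' protocols. The deposited cells held at least 501 genes. The kept control cells held at least 4173 UMIs each and had a median of 18832.

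The score, the groups and the 25% cut follow a rule that was chosen, as were the gene lists, with earlier results of these data known. UMIs were summed per group and run and expressed as CPM. The low-score group was reweighted over 10 groups of cells (5 depth groups in each run). Intervals are exact at 95% (Poisson for a level, conditional for a ratio, Clopper-Pearson for a share) and cover counting error only. Calls needed a mean of 20 CPM and list medians used genes with at least 5 CPM. The 5 score genes were left out of every list. Named genes were the 5 score genes, the 12 highest and 12 lowest ratios among genes called, without mitochondrial, ribosomal-protein and predicted genes, and in each list up to 4 called genes or, where there were none, the 2 most abundant. The text gives part of the genes so named, and 1 of them is left out of every count of named genes. Kcnj15, Klf2, Vegfc and Efemp1 were named after their values were seen. The call was tried on simulated counts, whose outcome is not given here, so its error rate in these data is not known. Doublets were scored with Scrublet in scanpy 1.11.5, whose automatic threshold marked 0% of either library and so had not worked, and no cell was removed in the main comparison. Clusters (Leiden method) of the kept cells were made without the score genes. A planned gate for leukocytes, at least 5 leukocyte and at most 1 endothelial marker UMI, held 0 cells, and the gate used was chosen after seeing the data, as were the alternatives without the venular and the cell-cycle clusters. Of 19831 genes, 19550 matched the GENCODE annotation by name. Promoters are from RefSeq (GRCm38.p6). Between the libraries and runs at most 1 cell barcode was shared by any pair. Scripts used Python 3.11.15, numpy 2.4.6, scipy 1.17.1 and pandas 2.3.3.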

Additional observations from a re-analysis of the deposited data

Results flagged for a closer look

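Efemp1, a secreted matrix protein related to fibulins, was the 1 gene called in opposite directions in the libraries. Its log2 ratio, high-score over low-score group, was 1.61 in the control (29.3 against 10.8 CPM) and -1.12 in the library labelled NF2 KO (23.4 against 50.4 CPM), and both runs of each library pointed the same way as the whole. The difference between the libraries was not tested.

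The control cells under 2000 detected genes, which the comparison left out, also gave UMIs of the 5 score genes. In these 1422 cells, with a median of 1581.5 UMIs, the 5 genes summed to 412 CPM (95% Poisson interval 389 to 436), with Kcne3 at 173 CPM and Kcnj8 at 87.2 CPM. These 2 levels, and those of Piezo2 (71.6 CPM) and Celf4 (30.6 CPM), lie within the Poisson intervals of the leukocyte-marked cells, so they are not shown to exceed that background. Ildr2, at 50.03 CPM, was above the upper bound of 46.5 CPM there.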

How the results depend on the processing

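Over 25 alternatives, 120 of the 126 named genes called in the control kept their direction in all and 48 kept the call in all. These counts include the 5 score genes, whose direction the score largely sets. All 5 kept their direction and all but Celf4 kept the call, which says nothing about how stable the other genes are. Counts called higher and lower in the control moved by over 1.5 times with the top and bottom 50% (184 and 231), a score from counts thinned to 4000 UMIs (237 and 280), all other kept cells as the comparison (152 and 216), a minimum of 5 CPM (656 and 968), of 50 CPM (248 and 227) or none (809 and 1364), and a ratio of at least 2 (162 and 205). In the library labelled NF2 KO, thinning gave 23 and 31, all other cells 44 and 43, a minimum of 5 CPM 195 and 248, of 50 CPM 67 and 32, none 343 and 705, a ratio of at least 2 22 and 35, and a score without Kcne3 54 and 53, and the top and bottom 50% gave 59 higher. The lowest log2 ratio of a score gene left out of its score, 1.68 for Kcne3, moved to 1.01 with the top and bottom 50%, 0.79 with thinned counts, 0.52 against all other cells and 1.04 without the venular cluster, each the lowest of the 5 genes. Directions reversed, as log2 ratios, for Hbb-bs with the top and bottom 10% (-1.08), Srebf2 (-0.10) with thinned counts, Jag1 (-0.089) and Peg3 (0.35) without Kcne3 in the score, and Uhrf1 (0.085) and Tipin (0.012) without the cell-cycle clusters. The cause of these moves was not tested. Where the score came from thinned counts, 370 cells were compared with 470, and with the top and bottom 10%, 96 of the 141 top cells had bottom cells of like run and depth. No paired analysis was possible because each group has 1 sample. Genes with few UMIs, Nptx1 and Ackr1 among them, are limited by counting error.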

Other observations

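A few groups outside the comparisons above also differed between the score groups of the control. Cholesterol genes had 4 of 9 with enough counts called higher and 0 lower. Among them, Msmo1 had a ratio of 1.88 (2.02 in run 1, 1.73 in run 2), Hmgcs1 1.79 (1.66 and 1.97) and Srebf2 1.56, a call that held in 4 of 25 alternatives and in neither run alone. Against all other cells 0 of the list were called. Without the venular cluster 1 of the 9 was called higher. The median log2 ratio of the list, 0.21, turned below 0 with the top and bottom 50%, with thinned counts and with a score without Piezo2, to -0.079 at the lowest. Heat shock genes had 3 of 8 lower and 0 higher, with Hspb1 at 148 against 489 CPM and a ratio of 0.352 (0.334 and 0.369).

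Of the imprinted genes, Mest, a hydrolase expressed from the paternal copy, was higher at 512 CPM (510 and 515 by run) against 175 CPM (181 and 171), a ratio of 2.70 (2.57 and 2.88). Peg3, also paternally expressed, had a ratio of 0.652 (0.843 and 0.481), a call that held in 9 of 25 alternatives and not in run 1 alone. Among endothelial transcription factors, 3 of 18 were higher and 5 lower: Ets2 had a ratio of 1.88 (2.26 and 1.52), and Meox2, a homeobox factor of quiescent endothelium, 0.324 (0.353 and 0.294). Ribosomal-protein genes had 0 of 81 called in either direction, with a median log2 ratio of -0.07.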
